A study of Mus musculus with 6 samples.

Results

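The nuclei described here are those of the choroid plexus epithelium, the sheet of secretory cells that lines the brain's ventricles beside the ependyma, caught in droplet libraries of mouse striatum. They were chosen by their values: Ttr of at least 20, Htr2c of at least 5, and a value of at most 1 for each of Gad1 plus Gad2, Slc17a7, and Mog plus Mag, which mark inhibitory neurons, excitatory neurons and oligodendrocytes. Of 48834 nuclei, 183 met this rule (0.375%). Each value is a depth-corrected count of unique molecular identifiers per gene and nucleus, deposited as a whole number, so the values of a gene can be set side by side between nuclei but are not raw molecule counts. The study's 6 libraries hold striatum of wild-type mice (3 libraries) or of mice with a Celsr3 heterozygous genotype (3 libraries); Celsr3 is a cadherin of the planar cell polarity family. The tissue was dissected, flash-frozen and opened to free the nuclei, and the 3′ ends of nuclear RNA were sequenced for all 6 libraries on 1 lane. Age, sex, strain and the litters are not given in the sources used here, nor is the nature of the Celsr3 allele.

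The choroid plexus makes cerebrospinal fluid. Its epithelial cells sit on a leaky vascular core, are sealed to each other by tight junctions, and move sodium, chloride, bicarbonate and water from blood to ventricle while they release carrier proteins such as transthyretin, the product of Ttr. They carry a tuft of cilia, and they are the best known site of the serotonin 2C receptor, Htr2c, outside neurons. The striatum itself holds no choroid plexus, but the lateral ventricle that contains it borders the striatum.

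The nuclei came from few libraries. There were 51 in wild-type replicate 1 (0.659% of its nuclei, exact 95% binomial interval 0.491% to 0.866%), 34 in wild-type replicate 2 (0.431%, 0.299% to 0.602%) and 97 in Celsr3 heterozygous replicate 3 (1.09%, 0.887% to 1.33%). Celsr3 heterozygous replicate 1 gave 1 nucleus of 7890. Wild-type replicate 3 gave 0 of 8081 nuclei and Celsr3 heterozygous replicate 2 gave 0 of 8363. Taken as 3 nuclei of the library, a count of 0 allows a share of up to 0.0371% and 0.0359%, and the upper bounds of the exact interval were 0.0456% and 0.0441%. Intervals and limits cover counting error only. Both genotypes had libraries with many and libraries with almost none, so the identity of the nuclei was described over 3 libraries and choroid nuclei were not compared by genotype. Nuclei of 1 library come from the same biological replicate and are not replicates of each other, so the spread given below is over these 3 libraries. None of the 183 barcodes occurred on a choroid nucleus of a second library, and 2 occurred on another nucleus of a second library.

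**Figure D1:**
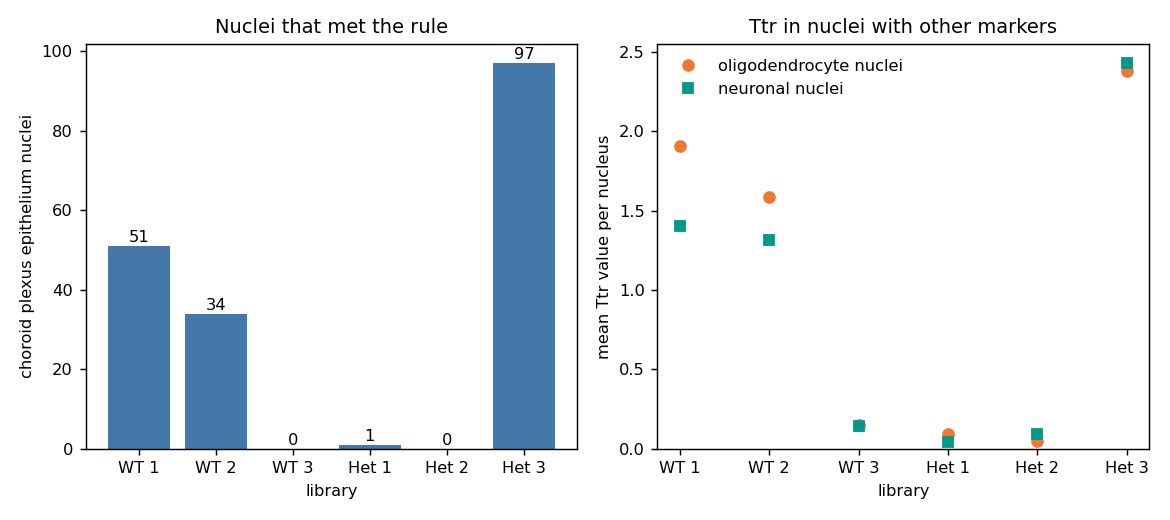
Left, bars give the number of choroid plexus epithelium nuclei in each of the 6 libraries (WT, wild type; Het, Celsr3 heterozygous); right, points give the mean Ttr value per nucleus in oligodendrocyte nuclei (circles; Mog plus Mag of at least 10) and neuronal nuclei (squares; Gad1 plus Gad2, or Slc17a7, of at least 3). The 3 libraries with 34 to 97 choroid nuclei have the higher Ttr means in both other populations.

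Ttr was also found in nuclei with markers of other cell types. In oligodendrocyte nuclei, taken as Mog plus Mag of at least 10, mean Ttr reached 1.90 in wild-type replicate 1, 1.59 in wild-type replicate 2 and 2.38 in Celsr3 heterozygous replicate 3. It was 0.149, 0.0918 and 0.0504 in wild-type replicate 3 and Celsr3 heterozygous replicates 1 and 2, the libraries with at most 1 choroid nucleus. The share of oligodendrocyte nuclei with a Ttr value of 1 or more was 66.1%, 63.9% and 84.5% in the first set and 9.37%, 5.51% and 3.6% in the second. Median genes detected per oligodendrocyte nucleus lay between 1857 and 2178 over the 6 libraries, against a median of 2799 in the choroid nuclei. The rule's minimum of 20 lay above the 99th percentile of oligodendrocyte nuclei, which was 2 to 8 by library, and 5 of 5530 oligodendrocyte nuclei reached it. In neuronal nuclei, taken as Gad1 plus Gad2 or Slc17a7 of at least 3, the 99th percentile of Ttr was 1 to 14 by library and 25 of 14291 reached 20. Otx2os1, a long non-coding RNA beside the homeobox gene Otx2, had a mean of at most 0.026 in oligodendrocyte nuclei of any library. In neuronal nuclei its mean was 0.0595, 0.0436 and 0.106 in the 3 libraries with many choroid nuclei and 0.0179, 0.00627 and 0.0225 in the others.

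Nuclei just outside the rule shared much with those just inside, at lower values. The 35 choroid nuclei with Ttr from 20 to 29 had a mean Otx2os1 value of 16.7, and the 21 nuclei with Ttr from 10 to 19 that met the rest of the rule had 12.5. Mean Gmnc was 9.89 in the first set and 5.62 in the second, and neither gene was found in 2 of 35 and 5 of 21. A further 51 nuclei had Ttr of at least 20 and Htr2c of at least 5 but a neuron or oligodendrocyte marker above 1; 47 of them had Otx2os1, their median Htr2c was 113, and 33 were left out by a value of exactly 2 for 1 marker pair or gene. Another 48 nuclei had Ttr of at least 20, up to 404, with Htr2c under 5. These differed: Otx2os1 was found in 2 of the 48, Gmnc in 0, and their median number of genes was 1787.5. Among the 183, Otx2os1 was found in 180 and Gmnc in 178, and 3 nuclei had neither. The rule read neither gene, but both have the largest ratios to other nuclei in these same 183 nuclei. They are therefore no independent check of the rule, and their values outside it describe likeness only. No doublet caller was run.

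Listed markers of the choroid plexus were high in these nuclei, but the list was chosen with earlier results of these data known. Of 40 choroid genes listed, 37 had a mean of at least 0.1 in choroid nuclei or in all other nuclei, and 37 were past 4-fold higher in choroid nuclei, 2 of them (Ttr and Htr2c) by the rule itself. Over all 10348 genes at that level, 783 were past 4-fold higher (7.57%) and 1149 past 4-fold lower (11.1%); since the rule chose nuclei on this contrast, nothing is read from the comparison of the shares. Leaving out 52 choroid nuclei above the 95th percentile of the 183 for the summed markers of another cell type left 131, with 783 genes past 4-fold higher than in other nuclei, as with all 183, and 1373 in place of 1149 past 4-fold lower. The median log2 ratio was 5.41 for the list and -0.01 for all genes. Ratios here and below are log2 of the mean plus 0.01 in each population, which understates the change of low genes, and they carry no test because the groups were defined by the same nuclei's values. All 37 were past 4-fold higher in each of the 3 libraries taken alone, as were 584 of the 10348 genes. A gene that reached 0.1 in choroid nuclei alone entered through the population where it was high, as 25 of the 37 and 1174 of all 10348 genes did. The counts of lists thus support nothing by themselves. Counts against all other nuclei are given with that number where it is above 0. It was not counted for the comparisons with ependymal nuclei, whose counts support nothing either. The shares to set beside each list count against all other nuclei are those over all genes, 7.57% higher and 11.1% lower. The same 183 nuclei were also set against 78 fibroblast nuclei, where 924 of 9955 genes were past 4-fold higher (9.28%) and 700 lower (7.03%), and against 506 endothelial nuclei, where 1169 of 9980 were higher (11.7%) and 771 lower (7.73%).

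Gmnc and Otx2os1 had the largest ratios with 0.01 added to the means. Gmnc, which encodes a geminin-like factor that starts the multiciliated cell programme, had a mean of 11.3 in wild-type replicate 1, 10.7 in wild-type replicate 2 and 12.6 in Celsr3 heterozygous replicate 3, and a value of 7 in the single nucleus of Celsr3 heterozygous replicate 1. All other nuclei had a mean of 0.0221, a log2 ratio of 8.53, and ependymal nuclei had 0.505. Over the 3 libraries its mean was 11.5 ± 0.967 (SD, n = 3 libraries). Otx2os1, the RNA transcribed opposite Otx2, had means of 20.5, 22.0 and 20.1 in the same 3 libraries and 0.0590 in other nuclei, a log2 ratio of 8.22. Its mean over libraries was 20.9 ± 0.970 (SD, n = 3), and for both genes the 3 libraries lay close together and above every other population compared. Tmem72, which encodes a membrane protein, had 3.78, 6.26 and 5.18 against 0.0121. The order depended on the pseudocount: with 0.1 Otx2os1 (7.02) came before Gmnc (6.61), and with 0.001 Otx2os1 (8.42) came after Gmnc and after others such as Tmem72 (8.57) and Gm534 (8.52). Other nuclei include the 51 left out by another marker, whose mean Gmnc was 9.16. Without comparison nuclei at Ttr of 10 or more, an alternative chosen after seeing the data, the log2 ratio was 9.35 for Gmnc and 8.92 for Otx2os1. Against other nuclei of the 3 libraries alone, chosen likewise, it was 7.94 and 7.54. Within wild-type replicates 1 and 2 and Celsr3 heterozygous replicate 3 it was 8.11, 8.23 and 7.58 for Gmnc and 8.34, 7.84 and 6.94 for Otx2os1.

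**Figure D2:**
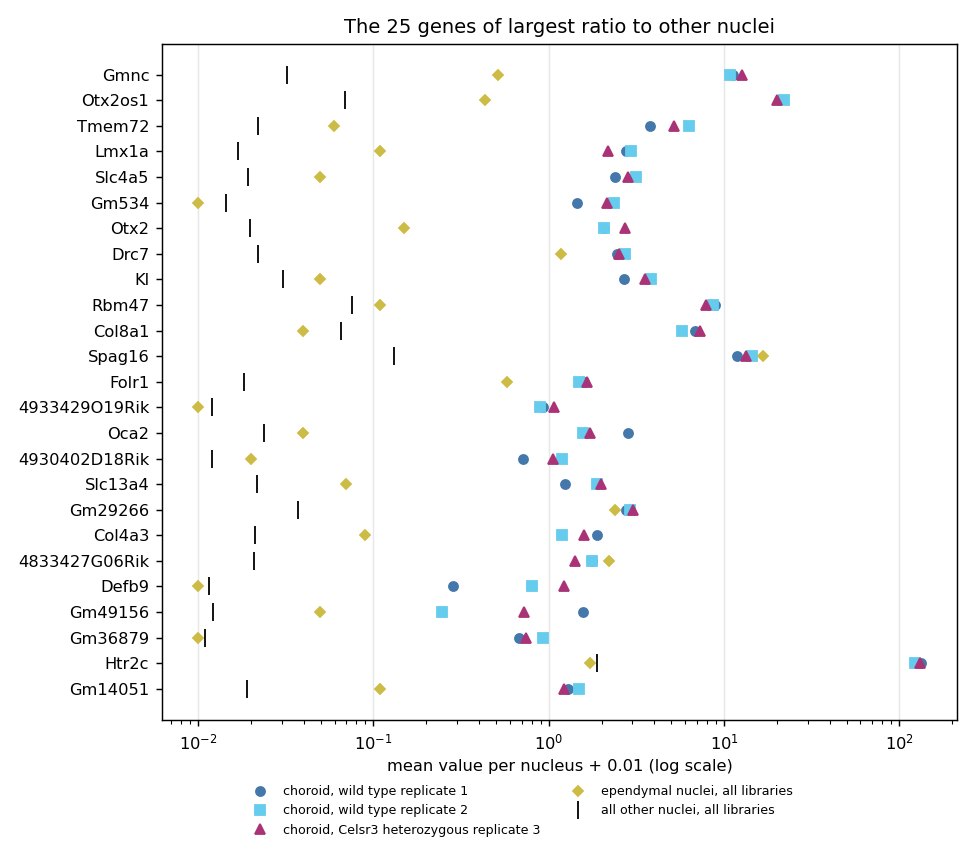
Mean value per nucleus plus 0.01 on a log axis for the 25 genes of largest ratio, in choroid nuclei of the 3 libraries with at least 10 (circle, square, triangle), in ependymal nuclei (diamonds) and in all other nuclei (bars). Gm49156 and Defb9 spread most between libraries; Spag16 and 4833427G06Rik are as high or higher in ependymal nuclei.

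Among transcription factors, Otx2 and Lmx1a were in the 25 genes of largest ratio. Otx2, a homeobox factor needed to form and keep choroid plexus, had means of 2.06, 2.06 and 2.70 in the 3 libraries and 0.00985 in other nuclei. Lmx1a, a LIM homeobox factor of the roof plate and cortical hem, had 2.76, 2.94 and 2.15 against 0.00695. Msx1, a target of bone morphogenetic protein signalling, had 0.608, 0.794 and 0.794 against 0.00761. Of 29 transcription factors at the level tested, 11 of them in choroid nuclei alone, 13 were past 4-fold higher and 4 lower, with a median of 1.35. Wild-type replicates 1 and 2 taken alone had 12 each past 4-fold higher, and Celsr3 heterozygous replicate 3 had 7. Of all 10348 genes, 752, 875 and 750 were past it in these libraries. Choroid nuclei were not compared by genotype. All 3 libraries shared 7 factors past it, and 584 of all 10348 genes. The zinc-finger factor Prdm16 had a mean of 7.44 against 0.282, Glis3 had 8.5 against 0.385, and Rfx3, a regulator of ciliary genes, had 9.97 against 1.77. The striatal factors Meis2 (0.863 against 6.39) and Foxp2 (0.410 against 2.25) were lower.

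Position along the neural axis could not be read from these lists. Of the telencephalic list, 4 genes were at the level tested, 1 of them in choroid nuclei alone, with 2 past 4-fold higher and 2 lower. Lef1, a Wnt effector, was higher at 2.96 against 0.190, as was the nuclear receptor Nr2f2 at 0.568 against 0.0923, and its relative Nr2f1 was lower at 0.0328 against 0.177. Of 15 hindbrain genes, 6 were in the table and 1, Meis1, reached the level (0.0656 against 0.741); the 9 Hox genes outside the table were not analysed here.

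Otx2 and its neighbours were high together. Of the 25 genes of largest ratio, 5 lay in a single stretch of 229.436 kb on chromosome 14 (GRCm38, chr14:48657677-48887112): Otx2, the non-coding Otx2os1 and Gm49156, and the processed transcripts Gm534 and 4933429O19Rik. The stretch was drawn around these genes after their values were seen, and they are all the genes of the table inside it. Within 500 kb on either side, 6 genes were at the level tested and 0 were past 4-fold higher, with log2 ratios from -3.31 (Slc35f4) to 0.79 (Exoc5). Gm534 had means of 1.43, 2.35 and 2.13 in the 3 libraries, and 4933429O19Rik 0.922, 0.882 and 1.06. Gm49156 spread more, at 1.55, 0.235 and 0.711. Each of the 5 overlaps another of them on the opposite strand, as 11 of the 25 leading genes do with some gene of the table. Whether counting used strand is not given in the sources used here, so it is not known whether reads of such pairs were kept apart. Gm14051, another of the 25 (mean 1.28 against 0.00906), overlaps Slc23a2 in the same way; Slc23a2, a vitamin C carrier, was 4.33 against 0.572.

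Promoters of the choroid genes were searched for TAATCC on either strand (GGATTA on the other), the core that Otx2 and related homeobox factors are known to bind, in the 250 bases before each RefSeq start (GRCm38.p6). Of 42 promoters matched to 30 of the 37 choroid genes, 3 held it (7.14%), against 2054 of 32851 promoters overall (6.25%). Among the 25 leading genes, 16 were matched, with 27 promoters, and 3 held it (11.1%). The choroid list thus held these letters at a share near that of all promoters. A match is a description of the letters only. The promoters shown hold it outside annotated exons. They belong to 2 genes of the choroid list, Abca4, a retinoid transporter (mean 1.91 against 0.0288; chr3:122044210-122044442, plus strand), and Vat1l (11 against 0.684; chr8:114205390-114205611, plus strand), and to 1 leading gene, Rbm47, an RNA-binding protein of epithelia (8.31 against 0.0657; chr5:66151959-66152204, minus strand). The others with a match were Otx2 itself, which is in both sets, and Gm14051. Each sequence runs 5′ to 3′ on the gene's strand up to the first exonic base, with the motif in capitals.
Abca4: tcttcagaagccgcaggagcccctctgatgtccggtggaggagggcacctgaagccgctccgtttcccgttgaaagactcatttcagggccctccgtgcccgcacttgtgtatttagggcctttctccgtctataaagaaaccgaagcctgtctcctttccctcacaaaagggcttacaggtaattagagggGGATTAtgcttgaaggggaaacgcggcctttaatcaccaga
Vat1l: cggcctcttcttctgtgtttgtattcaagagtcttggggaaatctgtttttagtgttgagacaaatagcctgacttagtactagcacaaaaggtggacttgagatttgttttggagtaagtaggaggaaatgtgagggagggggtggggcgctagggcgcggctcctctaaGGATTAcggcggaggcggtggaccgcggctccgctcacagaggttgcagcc
Rbm47: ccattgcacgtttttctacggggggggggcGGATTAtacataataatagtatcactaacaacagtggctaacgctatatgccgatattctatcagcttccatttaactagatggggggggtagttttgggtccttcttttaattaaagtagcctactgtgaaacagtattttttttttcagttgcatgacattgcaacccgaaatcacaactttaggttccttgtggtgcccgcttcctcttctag
The motif starts 58 bases before the start in Abca4, 79 in Vat1l and 220 in Rbm47. The Rbm47 stretch lies inside the annotated gene (chr5:66016549-66173118, minus strand), before an internal start. Which start is used in choroid nuclei was not tested.

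Ion and water transport genes were mixed. Of 32 at the level tested, 7 of them in choroid nuclei alone, 15 were past 4-fold higher and 2 lower, and the median log2 ratio was 1.76. Slc4a10, the sodium-coupled bicarbonate carrier of the basolateral membrane, had means of 19.3, 22.4 and 21.5 in wild-type replicates 1 and 2 and Celsr3 heterozygous replicate 3, and 1.33 in other nuclei (21.0 ± 1.59 over the libraries, SD, n = 3). Slc4a5, a luminal bicarbonate carrier, had 2.39, 3.15 and 2.81 against 0.00913, and the chloride-bicarbonate exchanger Slc4a2 had 1.15 over all choroid nuclei against 0.0891. The order of the 3 libraries was not the same from gene to gene. Stk39, the kinase that activates the cotransporter Slc12a2, had 27.6, 26.9 and 26.3 against 0.960, and its partner Cab39l had 7.27 against 0.460. Slc12a2 itself, the sodium-potassium-chloride cotransporter, was 4.13 against 1.06, a log2 ratio of 1.95 and so just short of 4-fold; against ependymal nuclei (0.248) it was past it.

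Channels and pumps divided. Trpm3, a heat- and steroid-gated cation channel, had means of 166, 158 and 144 in the 3 libraries (156 ± 10.7, SD, n = 3) against 4.90 in other nuclei and 43.8 in fibroblast nuclei. Trpv4, an osmosensitive channel, had 1.11 against 0.0108; Kcnj13, a potassium channel of the luminal face, 2.03 against 0.140; and the calcium pump Atp2b3 6.23 against 0.338. Those genes set the choroid nuclei apart from ependymal nuclei too, where Trpv4 was 0.0198, Kcnj13 0.0594 and Atp2b3 0.149. Atp1b1, a beta subunit of the sodium pump, was within 4-fold of other nuclei at 3.74 against 2.42. Slc4a4, a bicarbonate carrier known from astrocytes, was past 4-fold lower at 0.836 against 4.31, and the water channel Aqp4 was 0.0874 against 0.293. Aqp1, the choroid water channel, was found in 34 of the 183 nuclei and had means of 0.0980, 0.441 and 0.227, against 0.00208.

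**Figure D3:**
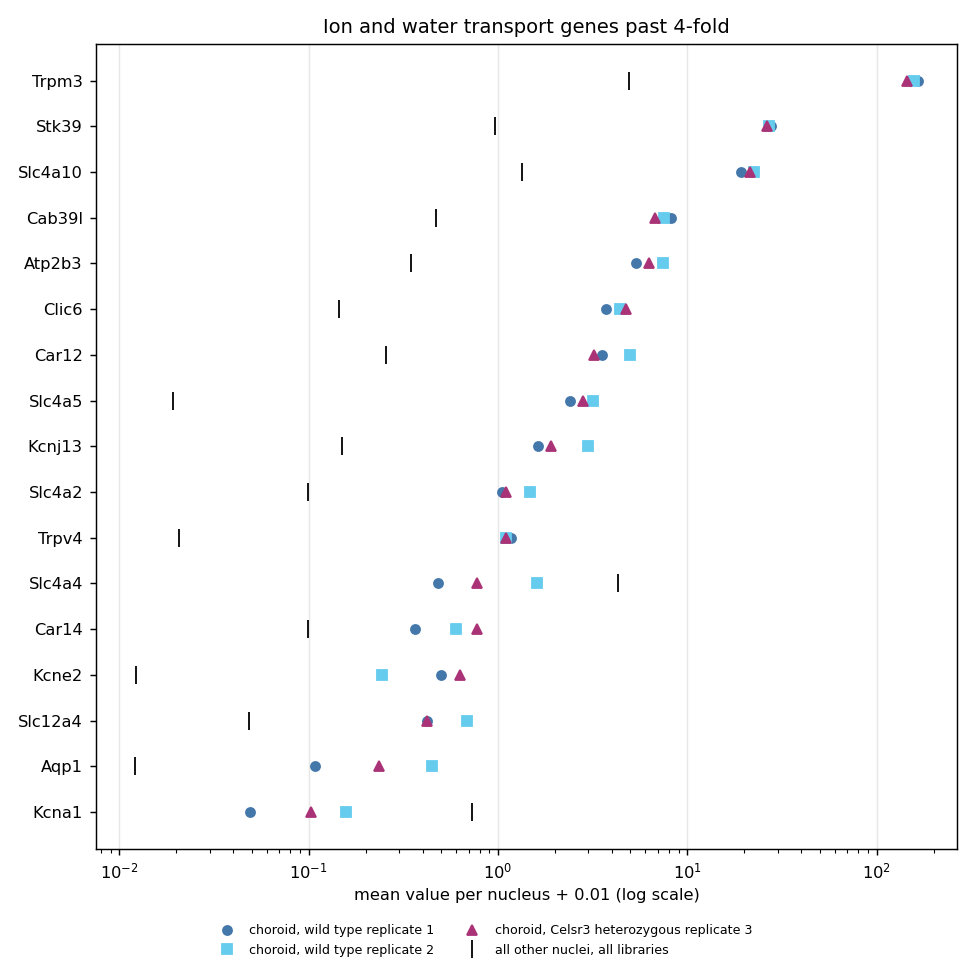
Mean value per nucleus plus 0.01 on a log axis for the ion and water transport genes past 4-fold (15 higher, 2 lower), in choroid nuclei of 3 libraries (circle, square, triangle) and in all other nuclei (bars). The libraries cluster for most genes; Aqp1, Kcne2 and Slc4a4 spread most widely among genes with a mean over 0.2.

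Solute carriers of the blood-fluid barrier were mixed as well. Of 31 barrier transporters at the level tested, 10 of them in choroid nuclei alone, 15 were past 4-fold higher, 14 within 4-fold and 2 lower (median 1.82). Slco1c1, a carrier of thyroid hormone and organic anions, had means of 2.20, 3.68 and 2.55 in the 3 libraries against 0.473, and Rdh5, a retinol dehydrogenase, 1.06 against 0.0490. The sulfate carrier Slc13a4 had 1.74 against 0.0117 and was also found in fibroblast nuclei (1.31), the zinc carrier Slc39a12 2.94 against 0.367, and the sugar carrier Slc2a12 1.44 against 0.0446. Slc2a1, the glucose carrier of brain endothelium, was not past 4-fold in choroid nuclei (0.213 against 0.168) and was 4.37 in endothelial nuclei. Of 14 genes of thyroid hormone and retinoid handling, 5 were past 4-fold higher, among them Ttr by the rule itself, and 1, the striatal retinoid receptor Rarb, lower (0.612 against 3.98). Of the 14, 3 reached the level in choroid nuclei alone.

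Of 24 genes for secreted proteins at the level tested, 10 of them in choroid nuclei alone, 15 were past 4-fold higher, among them Ttr by the rule itself, and 0 were lower (median 3.04). Enpp2, which encodes autotaxin, a secreted lysophospholipase, had means of 50.7, 52.6 and 51.5 in the 3 libraries (51.6 ± 0.954, SD, n = 3) against 1.84 in other nuclei, and its lowest value in any choroid nucleus was 1. Oligodendrocyte nuclei also carried it, with a mean of 8.33 and a value of 1 or more in 98.1% of 5530, and neuronal nuclei had 0.778. Kl, the co-receptor and hormone klotho, had 2.69, 3.82 and 3.52 against 0.0205. The axon guidance cue Slit2 had 4.81 against 0.565, and the ligand Bmp6 3.6 against 0.250. Others differed between libraries: the growth factor Igf2 had means of 0.333, 2.06 and 0.928, its binding protein Igfbp2 0.569, 1.24 and 1.08, and the Wnt and BMP antagonist Sostdc1 0.333, 0.706 and 1.11. Wild-type replicate 1 was the lowest library for all 3 of these genes. Its choroid nuclei also had the fewest genes, a median of 2586 against 3314 in wild-type replicate 2 and 2840 in Celsr3 heterozygous replicate 3. Their median total value was lowest too, at 5954 against 7260 and 6152. Whether this bears on the differences between libraries was not tested. Igf2 was found in 70 of the 183 nuclei, its mean over libraries was 1.11 ± 0.877 (SD, n = 3), and fibroblast nuclei had 1.22.

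Of 29 receptor and endocytosis genes at the level tested, 5 of them in choroid nuclei alone, 7 were past 4-fold higher, among them Htr2c by the rule itself, 20 were within 4-fold and 2 were lower (median 0.67). The prolactin receptor Prlr had means of 4.37, 6.53 and 5.23 in the 3 libraries against 0.0813. The folate receptor Folr1 had 1.59, 1.47 and 1.64 against 0.00830, although ependymal nuclei had 0.564. Lepr, the leptin receptor, had 0.842 against 0.0268, the endocytic adaptor Dab2 1.69 against 0.0759, and Notch2 3.28 against 0.165. Lrp2, the large endocytic receptor that some ependyma carries, was 0.0109 in choroid nuclei and 0.733 in ependymal nuclei.

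Of 22 serotonin receptor and Gq signalling genes at the level tested, 1 of them in choroid nuclei alone, 1 was past 4-fold higher, Htr2c, which the rule used, and 6 were lower (median -0.51). The shares over all 10348 genes were 7.57% higher and 11.1% lower. All 3 libraries shared 2 genes of the list past 4-fold lower. Without Celsr3 heterozygous replicate 3 the median was -0.80. In wild-type replicate 1 taken alone, Itpr1 was past 4-fold higher as well (log2 ratio 2.11). Htr2c values in the 183 nuclei ran from 7 to 341 with a median of 122, and the Htr2c means were 133, 122 and 130 in the 3 libraries. The downstream calcium channel Itpr1 was 10.8 against 3.19 and phospholipase Plcb4 1.87 against 0.851, both short of 4-fold over all libraries, and Plcb1 was lower at 1.53 against 10.7. The enzymes known to edit Htr2c RNA were within 4-fold of other nuclei, with Adarb1 at 0.519 against 0.613 and Adar at 0.317 against 0.466; Adarb2 was among the 10 genes of lowest ratio, at 0.153 against 2.89.

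Of 28 junction and polarity genes at the level tested, 12 of them in choroid nuclei alone, 14 were past 4-fold higher and 1 lower (median 1.93). Cldn2, a claudin that forms a cation and water pore, had means of 0.314, 1.21 and 0.753 in the 3 libraries against 0.00206, and 67 of 183 nuclei had a value. Cgnl1, the junctional protein paracingulin, had 2.80, 4.32 and 3.02 against 0.0625, and Myo5b, a motor for apical traffic, 2.28 against 0.193. Ezr, the microvillar linker ezrin, was 1.65 against 0.0825 and equally found in ependymal nuclei (1.75). Tjp1, a scaffold of tight junctions, was lower at 0.639 against 2.66 over all libraries, but 0 genes of the list were past 4-fold lower in all 3 libraries. Against ependymal nuclei 7 of 28 were past 4-fold higher and 0 lower, and over all genes 545 of 10605 were higher (5.14%). The 7 were Cldn1, Cldn2, Tjp3, Cgn, Cgnl1, Crb3 and Myo5b. Cldn5, the endothelial claudin, was 0.115 in choroid nuclei and 9.87 in endothelial nuclei, which it helped choose.

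**Figure D4:**
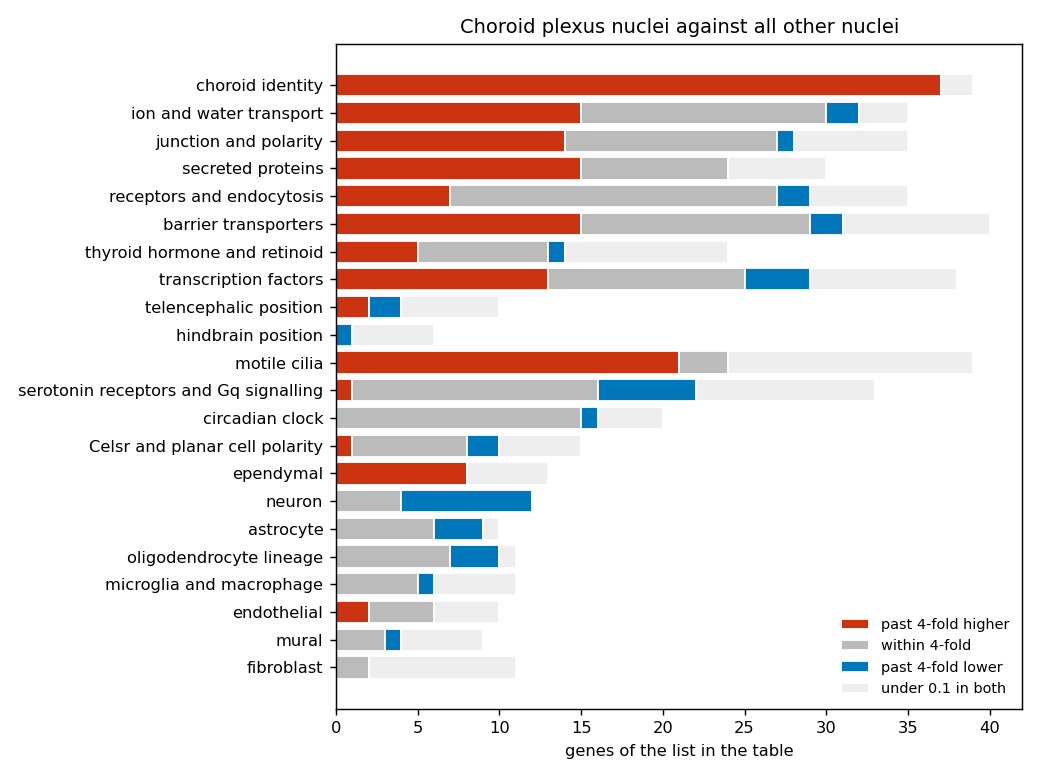
Bars count the genes of each list in the table by their ratio between choroid nuclei and all other nuclei: past 4-fold higher, within 4-fold, past 4-fold lower, or with a mean under 0.1 in both. All 37 choroid identity genes at the level tested are past 4-fold higher, Ttr and Htr2c by the rule, and 8 of 12 neuron genes are past 4-fold lower. Among the neuron genes, Gad1, Gad2 and Slc17a7 were capped by the rule.

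Part of the motile cilia list was found in choroid nuclei, mostly at lower values than in ependymal nuclei. Against all other nuclei, 24 of 39 motile cilia genes were at the level tested, 19 of them in choroid nuclei alone, and 21 were past 4-fold higher. Of the 5 that reached 0.1 in other nuclei, 3 were past 4-fold higher: Spag16, Cfap54 and Ccdc39. Ependymal cells carry long beating cilia on the same ventricles. The 101 ependymal nuclei were taken by a summed value of at least 20 for Dnah9, Dnah11, Dnah12, Hydin, Spag17, Cfap299, Spef2 and Cfap43. These 8 ciliary genes are therefore high there by the choice itself. Ependymal nuclei occurred in all 6 libraries, with 22, 11 and 24 in the 3 libraries that have at least 10 choroid nuclei. Against these, 1 of 37 motile cilia genes was past 4-fold higher in choroid nuclei (Gmnc) and 32 were lower, with a median of -3.34. Of all 10605 genes at that level in the 2 populations, 545 were past 4-fold higher (5.14%) and 1192 lower (11.2%), and both populations were chosen on values. Leaving out the 8 genes that chose the ependymal nuclei, 25 of 29 were past 4-fold lower. Genes under 0.1 in choroid nuclei entered these comparisons through ependymal nuclei alone, among them 11 with a mean of 1 or more there. The genes left may follow the 8 that chose the nuclei, so neither count is read as support.

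Within the list the genes did not scale together. Spag16, a central-pair protein of the axoneme, had means of 11.8, 14.4 and 13.4 in choroid nuclei of the 3 libraries and of 21, 17.8 and 12.4 in ependymal nuclei of the same libraries, so its direction differed between them. Over all libraries, Spef2, Cfap44 and Ccdc39 were also within 4-fold of ependymal nuclei, at 2.60 against 8.77, 1.88 against 7.27 and 1.58 against 2.66. In wild-type replicate 1 taken alone, Spef2 and Cfap44 were past 4-fold lower (log2 ratios -2.26 and -2.09). Several dynein heavy chains of the axoneme were detected, with Dnah6 at 1.95 against 7.95, Dnah9 at 1.70 against 7.74 and Dnah11 at 1.38 against 6.35. Spef2, Dnah9 and Dnah11 helped choose the ependymal nuclei. Other genes of the list were near 0: 15 of 39 had a mean under 0.1 in choroid nuclei, and 11 of these had 1 or more in ependymal nuclei. Among the 15, the regulators Mcidas and Ccno were near 0 in ependymal nuclei too, at 0.0455 or less in each of the 3 libraries. Among genes that did not choose the ependymal nuclei, Dnah5 was 0.00546 against 5.28 and Tmem212 0.0273 against 9.80. Dnah12 (0.0273 against 17.8) and the central-pair gene Spag17 (0.0328 against 6.77) helped choose those nuclei. Foxj1, the master factor of motile cilia, was 0.126 against 1.61, while Gmnc was 11.9 against 0.505. The summed value of the 8 ependymal genes had a median of 8 in choroid nuclei and 65 in ependymal nuclei, and 8 of the 183 choroid nuclei reached 20, the highest at 32.

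**Figure D5:**
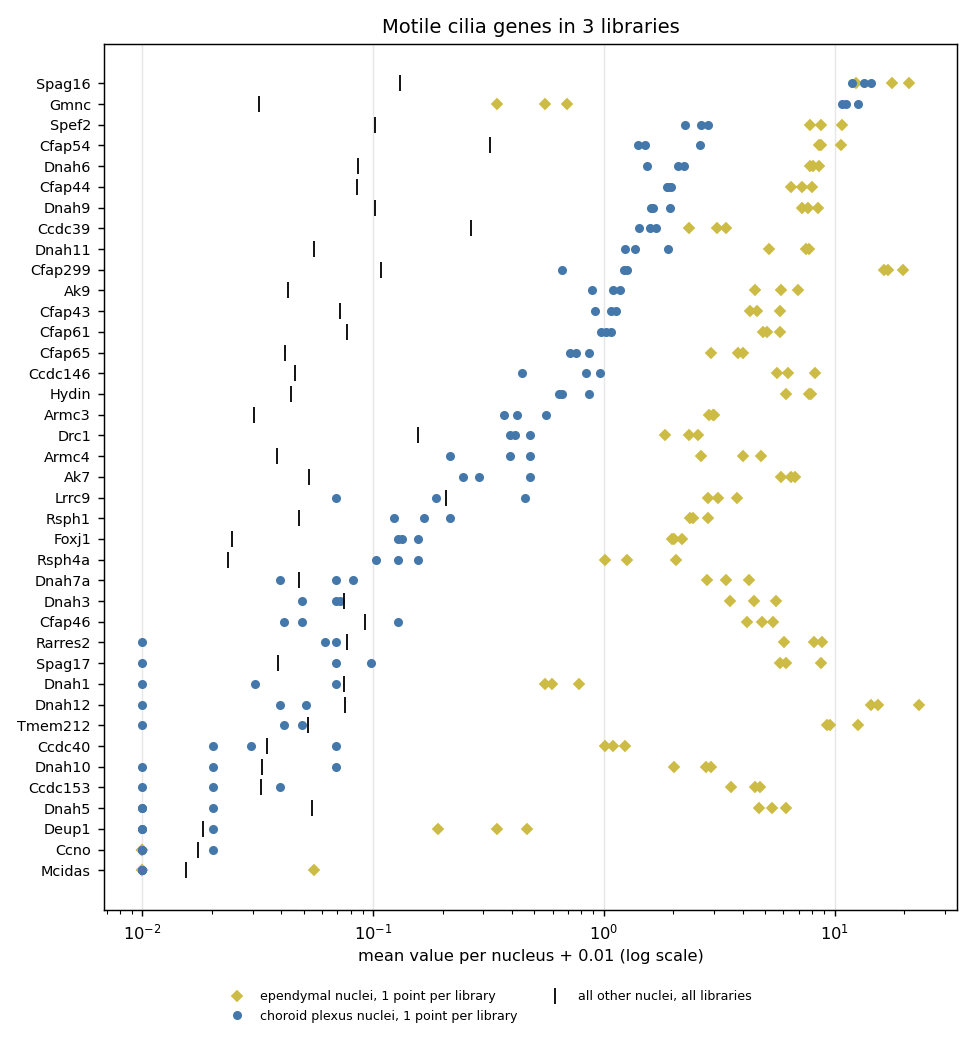
Mean value per nucleus plus 0.01 on a log axis for 39 motile cilia genes in choroid nuclei (circles) and ependymal nuclei (diamonds), 1 point for each of 3 libraries, with all other nuclei as bars. The 2 populations lie near each other for Spag16, cross for Gmnc, and stand furthest apart for genes such as Dnah12, Tmem212 and Dnah5. Dnah12 helped choose the ependymal nuclei.

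Most genes of the choroid list were lower in ependymal nuclei. Of 38 choroid genes at the level tested, 33 were past 4-fold higher in choroid than in ependymal nuclei and 0 lower. Over all genes, 545 of 10605 were past 4-fold higher (5.14%). Genes near 0 in ependymal nuclei entered through choroid nuclei alone, so nothing is read from the count. The 5 choroid genes not past 4-fold were Folr1, Calml4, Ecrg4, Krt18 and Krt8. The genes of largest ratio were Gm534, Col8a1, Wdr72, 4933429O19Rik and Defb9. Col8a1, a short-chain collagen, was 6.83 against 0.0297, and the other 4 were at 0 in all 101 ependymal nuclei. At the other end, Wdr49 and Cdhr3 were at 0 in all 183 choroid nuclei and had 6.71 and 3.55 in ependymal nuclei, and Adamts20, a secreted protease, had 0.0164 against 10.5. The glial factors Sox2 (0.137 against 1.08) and Sox9 (0.197 against 1.52) were past 4-fold lower as well.

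Markers of other cell types differed by type, with some lower and some higher than in other nuclei. The shares over all 10348 genes were 7.57% past 4-fold higher and 11.1% lower. Of 8 ependymal genes at the level tested, all 8 in choroid nuclei alone, 8 were past 4-fold higher (median 3.97). The summed ependymal value had a mean of 9.16 against 0.706. Of 12 neuron genes at the level tested, 0 were past 4-fold higher and 8 lower (median -2.35), 3 of the 12 being rule genes. The summed neuron value had a median of 15 and a range of 2 to 229 in choroid nuclei, against a median of 112 in other nuclei. For astrocytes 3 of 9 genes, 1 of which reached the level in choroid nuclei alone, were past 4-fold lower and 0 higher, and the summed value had a median of 9 (0 to 144) against 10 and a mean of 11.2 against 32.5. For the oligodendrocyte lineage 3 of 10 were lower and 0 higher, and 2 of those 3, Mog and Mag, were capped by the rule. Its summed value had a higher median, 14 (1 to 41) against 9, but a lower mean, 15 against 37.4. Microglial genes had a summed median of 2 (0 to 8) against 1 and a mean of 1.94 against 3.16, with Cx3cr1 at 1.20 against 0.5, Csf1r at 0.0765 against 0.322, and the macrophage markers Mrc1 and Lyve1 at 0 in every choroid nucleus. Of 6 endothelial genes 2 were past 4-fold higher, the transcription factor Mecom (5.49 against 0.167) and the organic anion carrier Slco1a4 (1.56 against 0.260), while Flt1, Cldn5, Ptprb and Adgrl4 were at 0.219 or less. Mural and fibroblast genes had summed medians of 0 and highest sums of 9 and 5. Abcc9, Kcnj8 and Acta2 of the mural list and Col1a1, Col3a1, Slc6a13 and Slc22a6 of the fibroblast list were at 0 in every choroid nucleus. The summed endothelial value had a median of 7 (0 to 115) against 0 and a mean of 7.64 against 1.49, most of it from Mecom and Slco1a4, and the median log2 ratio over the 6 genes was -0.70. That median depended on single libraries, being -2.46 without wild-type replicate 2 and 0.17 without Celsr3 heterozygous replicate 3, and it was -2.36 without the 52 choroid nuclei high for other markers. The part of free RNA or joined nuclei in these values was not tested.

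Among genes with a mean of at least 1 in other nuclei, the 10 of lowest ratio were St18 (0.0546 against 3.52), Prr5l (0.0383 against 2.31), 4930419G24Rik, St6galnac3, Tafa1, Il1rapl2, Fstl4, Adarb2, Gm10848 and Nrg3os. Their log2 ratios ran from -5.77 to -4.12.

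Over all 10348 genes, 7.57% were past 4-fold higher and 11.1% lower, and nothing is read from counts of 1 or 2 genes. Of 16 circadian clock genes 0 were past 4-fold higher and 1, Rorb, lower (0.142 against 1.38), and the median was -0.07. Of 10 Celsr and planar polarity genes, 2 of them at the level in choroid nuclei alone, 1 was past 4-fold higher, Fzd6 (0.454 against 0.0517), which entered that way, and 2, Prickle2 and Dchs1, were lower. The median was -0.50, and the summed value had a mean of 3.49 against 7.29. Celsr1, Celsr2 and Celsr3 had means of 0.0601, 0.120 and 0.0164 in choroid nuclei. In all other nuclei, Celsr3 ranged from 0.0752 to 0.108 over the wild-type libraries and from 0.0617 to 0.0692 over the heterozygous ones. Those values are low, pool all other cell types and were not set against other genes, so they are no check of the labels. The Celsr3 mean rests on so few values that its level by genotype could not be read in choroid nuclei.

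Nuclei varied among themselves. Ttr had a 10th percentile of 26, a median of 44, a 90th of 97.4 and a highest value of 722, and the library medians were 44, 40.5 and 44. The means were further apart, at 48.6, 68.0 and 64.3, and the highest nuclei of the libraries had 95, 328 and 722. Trpm3 had library medians of 165, 162.5 and 146, and Enpp2 had 50, 52 and 49. Among genes with a mean of at least 0.5, others of high variance over mean were Malat1, Lsamp, Meg3, Gpc5, Lhfpl3, Sox2ot, Tnr and Kcnip4. Single nuclei held 42.5% of the summed Gpc5 value, 45.2% of Lhfpl3 and 48.9% of Tnr; 1 nucleus was highest for both Meg3 and Kcnip4, and 1 for both Lhfpl3 and Sox2ot. In wild-type replicate 2, Flt1 had a mean of 1.12 that rested largely on 1 nucleus with a value of 38; 3 of the 183 choroid nuclei had any Flt1.

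Within a library, some pairs of choroid genes followed each other and others did not. Across nuclei, Pearson's r of Htr2c with Trpm3 was 0.51 (51 nuclei), 0.59 (34) and 0.28 (97) in wild-type replicates 1 and 2 and Celsr3 heterozygous replicate 3, and Spearman's rho 0.37, 0.40 and 0.24. Otx2os1 with Gmnc gave r of 0.55, 0.46 and 0.13 and rho of 0.40, 0.48 and 0.14. Htr2c with Otx2os1 gave r of 0.44, 0.37 and 0.33 and rho of 0.35, 0.34 and 0.35. Ttr with Enpp2 gave r of 0.07, 0.46 and 0.58 and rho of 0.03, 0.41 and 0.21, and Ttr with Otx2os1 r of 0.16, -0.0089 and -0.0016 and rho of 0.21, 0.09 and 0.09. Ttr with Htr2c gave r of 0.20, 0.16 and -0.07 and rho of 0.30, 0.29 and 0.05, and the rule cut both of these genes from below. These are descriptions over nuclei that share a library and a depth correction.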

How the data were processed

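Single-nucleus libraries were made with the 10x 3′ v3.1 kit, per the labels' protocols. The authors deposited 1 table of 24841 genes by 48834 nuclei whose whole-number values are treated as a score: totals per nucleus ran from 4523 to 10638 with a coefficient of variation of 10.7%, so they were taken as depth-corrected, and raw depth is unknown. Cell Ranger, Seurat 4.1 and the builds mm10 and GRCm38 are named in the submitters' processing notes; filters on nuclei are not given in the sources used here. Median genes per nucleus ran from 2456 to 3011 by library.

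Means, log2 ratios (0.01 added to each mean), shares and percentiles were computed with Python 3.11.15, numpy 2.4.6 and pandas 2.3.3, for genes with a mean of at least 0.1 in either population, and the ratio code was tested on simulated data. Fibroblast and endothelial nuclei were taken by marker sums of at least 15. Text names the 25 genes of largest ratio and the 10 most variable (mean of at least 0.5 in choroid nuclei), the 10 of lowest ratio (mean of at least 1 in other nuclei), 5 in each direction against ependymal nuclei (mean of at least 0.5 in the higher), and list members; genes flanking Otx2 were named after their values were seen. Members and lists were chosen with earlier results of these data known. No test was run, because the rule read the values compared. Alternatives changed the rule's minima, pseudocount, filter, scaling, weights and libraries. Gene positions are from GENCODE vM21. Results for some list members are not reported here, though list counts include them.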

Additional observations from a re-analysis of the deposited data

How the results depend on the processing

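Raw depth is unknown and the 183 nuclei come mostly from 3 libraries, which limits the precision of low genes. For the 44 named genes past 4-fold, 740 of 748 recomputed log2 ratios stayed past it; most of these genes were chosen for extreme ratios, so this is no sign of stability. A Ttr minimum of 40 left 107 nuclei; leaving out each library in turn left 86 to 183, with 86 without Celsr3 heterozygous replicate 3. The numbers of genes past 4-fold higher and lower became 362 and 447 with a pseudocount of 0.1, and 404 and 550 with a mean of at least 0.5, as low genes drop out or shrink by construction; leaving out each library gave 780 to 813 and 1083 to 1248. The median log2 ratio of the choroid list was 5.05 with libraries weighted equally, 6.10 and 3.82 with pseudocounts of 0.001 and 0.1, and 5.09 against other nuclei of the 3 libraries with at least 10 choroid nuclei, an alternative chosen after seeing the data; it was 5.37 to 5.46 leaving out each library. A pseudocount of 0.1 also lowered other list medians, among them secreted proteins (1.83), motile cilia (2.67), junction and polarity (1.14), and ion and water transport (1.41). Without comparison nuclei at Ttr of 10 or more, also chosen after seeing the data, 786 genes were past 4-fold higher and 1154 lower. No paired analysis was possible because the results come from no test: choroid nuclei were not compared by genotype, and 3 of the libraries hold at most 1 of them.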
